A study of Mus musculus with 6 samples.

Results

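The tumour necrosis factor (TNF) superfamily is a set of ligands and receptors through which immune cells signal to each other, and its RNA was examined in granulocyte-macrophage progenitors (GMPs), the bone marrow cells that give rise to granulocytes and monocytes. Its members were taken by gene symbol: every symbol that begins with Tnfsf or Tnfrsf and a digit, together with Tnf, Lta, Ltb, Ltbr, Cd27, Cd40, Cd70, Fasl and Ngfr. That gave 39 of the 37620 gene rows: 15 ligand genes, 23 receptor genes and Tnfsf13os, an antisense RNA gene. At least 1 read was found for 35 of the 39, and 26 had a mean of at least 10 normalized counts (reads scaled for the depth of each library) over all libraries and were tested.

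GMPs were sorted from the bone marrow of C57BL/6 mice as cells without lineage markers or Sca1 that carried c-Kit and CD34 and were stained for Fcγ receptors. The 3 libraries labelled Bap1 knockout came from Mx1-Cre Bap1 f/f mice and the 3 control libraries from Bap1 f/f mice without Cre. All mice therefore carried the floxed Bap1 alleles, all were 65 days old, and all had received polyI:polyC at 42 days per the labels. The series' own design text gives a younger age for the injections. PolyI:polyC triggers an interferon response, and the Mx1 promoter that drives Cre responds to interferon in blood cells and in other tissues. Cre was present only in the knockout-labelled group, so its own effect cannot be told apart from that of Bap1 deletion. The labels do not say whether each library came from its own animal, so p-values measure the spread between these libraries. The question of the study was which genes change in GMPs when Bap1, a nuclear deubiquitinase, is lost.

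Ligands of the TNF superfamily are mostly made as trimers on the cell surface, and some are released by the protease ADAM17. Their receptors fall into those with a cytoplasmic death domain, which can recruit FADD and caspase-8, those that bind TRAF adaptors and lead to NF-κB and MAP kinases, and decoy-type receptors that lack such signalling. In blood formation, members of the family act in the survival and costimulation of lymphocytes, in inflammation and in the response of progenitors to infection.

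Libraries labelled knockout held 19.5 to 24.1 M gene reads and control libraries 24.1 to 25.9 M. Bap1 (ENSMUSG00000021901) was at 2671, 3309 and 2968 normalized counts in knockout-labelled libraries 1 to 3, against 1343, 998 and 1076 in control libraries 1 to 3. It was thus 2.62-fold higher in the libraries labelled knockout, which goes against the label (log2 fold change 1.39, SE 0.14, limma adjusted p = 6.07e-05). A count over the whole gene takes in exons outside the deleted stretch and does not check the deletion, and all directions that follow are those of libraries by label. Of the genes behind the sort markers, Cd34 fell by 1.54 on the log2 scale and Fcgr3 fell by 0.77, while Kit rose by 0.47 (limma adjusted p = 5.04e-06, 0.00198 and 0.0214). Fcgr2b, also an Fcγ receptor gene, was not called (log2 fold change -0.15, limma adjusted p = 0.346).

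Of the 26 tested members 4 rose and 5 fell in the libraries labelled knockout at a limma adjusted p under 0.05 over all tested genes, or 34.6%. Among all 14391 tested genes 26.8% were called, 11.8% as higher and 15.0% as lower. The receptors Tnfrsf26, Tnfrsf13b, Ltbr and Tnfrsf18 rose. The receptors Cd27 and Tnfrsf8 and the ligands Tnfsf8, Tnfsf9 and Tnfsf15 fell. The median log2 fold change was -0.03 over the tested members and 0.005 over all tested genes. Values of the groups did not overlap for 14 of the 26, against 42.9% of all tested genes. Knockout-labelled libraries lay above control in 7 of them and below in 7, against 20.4% and 22.5% of all tested genes. In these bulk libraries, fewer cells of a type and less RNA per cell cannot be told apart. A read minimum bears on these counts: Tnfsf8, Tnfsf9 and Tnfsf15 were tested only because of their control values, so they had to differ once tested. Tnfrsf11a, among the 7 above control, was tested only because of its knockout-labelled values. Just above the minimum of 10 stood Tnfrsf11a and Tnfsf8, with overall means of 11 and 12.0 normalized counts, and just below it Fasl and Cd40, with 9.20 and 7.54.

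**Figure D1:**
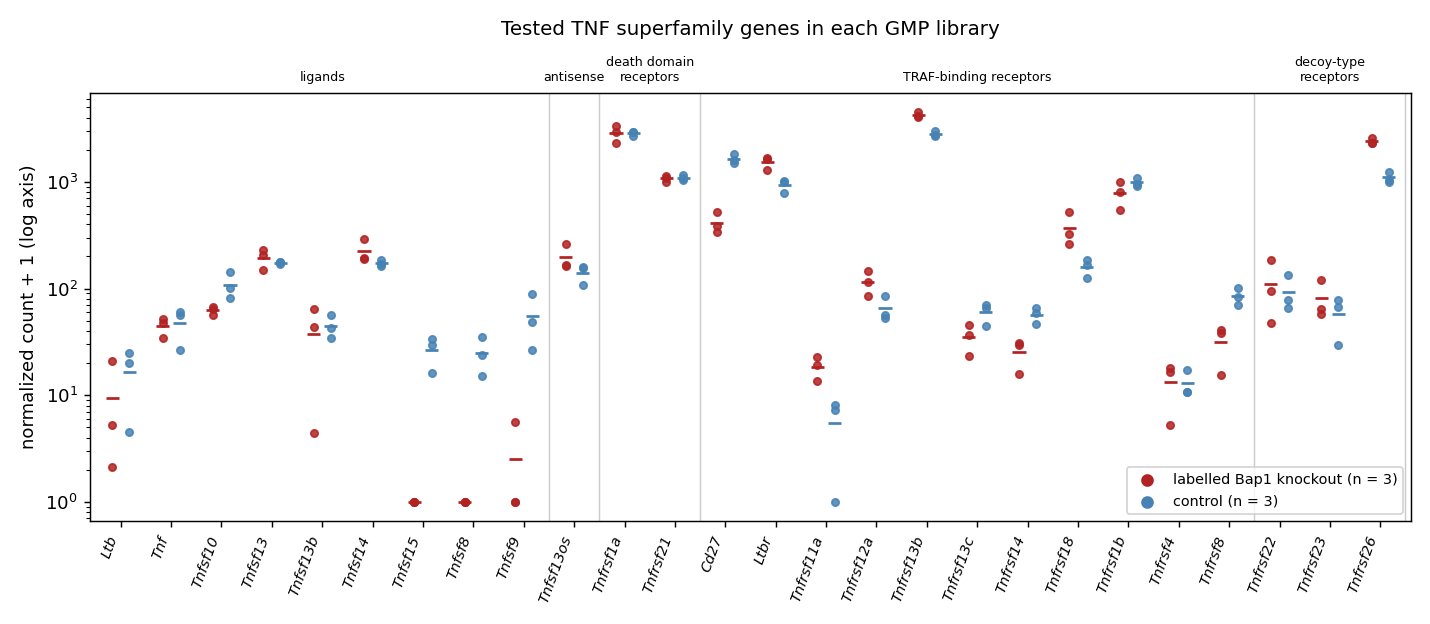
Normalized count plus 1, on a log axis, of the 26 tested TNF superfamily genes in each of the 3 libraries labelled Bap1 knockout (left of each pair) and the 3 control libraries (right), with points for libraries and short lines for group means. Knockout-labelled points lie far below the control points for Cd27, Tnfsf8, Tnfsf9 and Tnfsf15, and above them for Tnfrsf26 and Tnfrsf13b.

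Ligand genes were read at low levels in both groups, and those called were lower in libraries labelled knockout. Of the 15 ligand genes 9 were tested, 0 rose and 3 fell, against 11.8% and 15.0% of all genes. The 3 that fell passed the read minimum only through their control values, so their direction was fixed once tested. At an unadjusted p under 0.05 the count of higher ligand genes was also 0, as it was with edgeR and DESeq2. Cd70 (the ligand of CD27), Tnfsf11 (RANKL, the osteoclast factor) and Tnfsf18 (the ligand of GITR) had 0 reads in all 6 libraries, which allows up to 3 reads in each.

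Tnfsf8, the ligand of CD30, had 0 reads in all 3 libraries labelled knockout, against 23.1, 34.4 and 14.3 normalized counts in control libraries. Tnfsf15, the T cell costimulatory ligand TL1A, had 0 reads in the same 3 libraries, against 28.4, 32.5 and 15.2 normalized counts in control libraries. Every control library held reads of both genes, and control 3 held the fewest. Set against the 3 reads per library that a count of 0 allows, Tnfsf8 was at least 7.36-fold lower and Tnfsf15 at least 7.80-fold lower in the libraries labelled knockout (limma adjusted p = 0.00317 and 0.00252). Without control 1 or without control 2, both genes were below the read minimum and were not tested. Tnfsf8 and Tnfsf15 are next to each other on chromosome 4 in the RefSeq order of protein-coding genes. Their upstream stretches are shown because these neighbours had 0 reads in the same libraries. They are the 250 bases before each start in RefSeq (GRCm38.p6), read 5′ to 3′ on the gene's strand, with CG dinucleotides in capitals. That of Tnfsf8 lies at chr4:63861285-63861534 (- strand) and that of Tnfsf15 at chr4:63745060-63745309 (- strand).
Tnfsf8: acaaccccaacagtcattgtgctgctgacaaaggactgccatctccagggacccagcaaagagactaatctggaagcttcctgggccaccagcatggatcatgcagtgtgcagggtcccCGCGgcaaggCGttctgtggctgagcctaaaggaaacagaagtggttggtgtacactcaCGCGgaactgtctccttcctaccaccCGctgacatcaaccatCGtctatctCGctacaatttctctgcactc
Tnfsf15: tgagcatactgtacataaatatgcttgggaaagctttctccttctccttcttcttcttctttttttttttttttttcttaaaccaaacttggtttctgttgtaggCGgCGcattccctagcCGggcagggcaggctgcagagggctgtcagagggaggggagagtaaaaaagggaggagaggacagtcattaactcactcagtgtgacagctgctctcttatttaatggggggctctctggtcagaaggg
The stretch of Tnfsf8 holds 8 CG dinucleotides, a number that 43.4% of 27025 mouse promoters of this length reach or pass, and that of Tnfsf15 holds 3, which 70.4% reach or pass. The median promoter holds 6.

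Tnfsf9, the ligand of the T cell costimulatory receptor encoded by Tnfrsf9, was at 0, 0 and 4.57 normalized counts in libraries labelled knockout, against 48.0, 88.9 and 25.8 in control libraries. The groups did not overlap, and only knockout-labelled library 3 held any reads. The means were 1.52 ± 2.64 in libraries labelled knockout and 54.2 ± 32 in control libraries (SD, n = 3 each), which put the log2 fold change at -4.79 with an SE of 0.87 (limma adjusted p = 0.00214). It was -5.62 without knockout-labelled library 3 and -3.35 with a pseudocount of 4. Exons of Tnfsf9 share 192 bases with Gm11110 on the opposite strand, which was at 3.20, 4.16 and 13.7 normalized counts in libraries labelled knockout against 67.5, 11.5 and 30.3 in control libraries (limma adjusted p = 0.0592). Whether reads were counted by strand is not stated, and reads of the shared exons cannot be told apart.

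The other ligands were not called. Tnf, the founding inflammatory cytokine of the family, was at 33.1, 46.9 and 51.4 normalized counts in libraries labelled knockout, against 55.1, 25.8 and 59.7 in control libraries. The ranges overlapped, and the log2 fold change of -0.03 changed sign when single libraries were left out (limma adjusted p = 0.967). Tnfsf10 (TRAIL, a ligand that can trigger apoptosis) was at 62.9, 65.6 and 56.0 normalized counts in libraries labelled knockout, below the 80.0, 99.4 and 141.7 of the control libraries, and missed the threshold (log2 fold change -0.75, limma adjusted p = 0.0994). Tnfsf14 (LIGHT, a ligand of HVEM and of the lymphotoxin β receptor) had means of 223.9 ± 60.3 normalized counts in libraries labelled knockout and 172.8 ± 12.2 in control libraries (SD, n = 3 each; limma adjusted p = 0.317).

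Both B cell survival ligands were read without a call. Tnfsf13 (APRIL) was at 203.7, 230.1 and 148.4 normalized counts in libraries labelled knockout, against 176.8, 174.9 and 168.5 in control libraries (limma adjusted p = 0.70). Its exons share 983 bases with Tnfsfm13 on the same strand and 221 with its antisense gene Tnfsf13os, so its count is uncertain. Tnfsf13os itself had means of 196.7 ± 56.9 normalized counts in libraries labelled knockout and 140.3 ± 28.1 in control libraries (SD, n = 3 each; limma adjusted p = 0.229). Tnfsf13b (BAFF) was at 64.0, 42.7 and 3.43 normalized counts in libraries labelled knockout, against 55.1, 33.4 and 41.9 in control libraries. Knockout-labelled library 3 stood far below the other 5 libraries: the log2 fold change was -0.91 with it (limma adjusted p = 0.449) and 0.29 without it. Ltb, the membrane-bound lymphotoxin subunit, was at 4.27, 19.8 and 1.14 normalized counts in libraries labelled knockout and 3.55, 19.1 and 24.1 in control libraries (limma adjusted p = 0.441).

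Fasl (the ligand of the death receptor FAS), Tnfsf4 (OX40 ligand) and Lta (lymphotoxin α) were read below the minimum. Fasl had 4, 0 and 0 reads in libraries labelled knockout and 21, 31 and 3 in control libraries. It passed as lower where leaving out knockout-labelled library 1 or control 3 lifted it above the minimum (limma adjusted p = 0.0425 and 0.0407). Control values alone carried Fasl there, so it had to be lower. It did not pass where all genes with a read were tested (limma adjusted p = 0.06). Tnfsf4 had 7, 9 and 5 reads against 14, 0 and 0 in the control libraries. Lta had 3, 0 and 1 reads against 0, 0 and 8 in the control libraries.

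Receptors carried most of the family's reads. Per kilobase of the longest annotated transcript, the 5 highest members in libraries labelled knockout were Tnfrsf13b, Tnfrsf1a, Tnfrsf26, Ltbr and Tnfrsf18, with 1660, 1320, 775, 728 and 309 normalized counts per kilobase. In control libraries they were Tnfrsf1a, Tnfrsf13b, Cd27, Ltbr and Tnfrsf26, with 1330, 1100, 1060, 444 and 354. Cd27 stood at 265 normalized counts per kilobase in libraries labelled knockout, seventh in the order, and Tnfrsf18 at 133 in control libraries. Of the 23 receptor genes 16 were tested, 4 rose and 2 fell, where 11.8% of all tested genes were called higher and 15.0% lower.

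**Figure D2:**
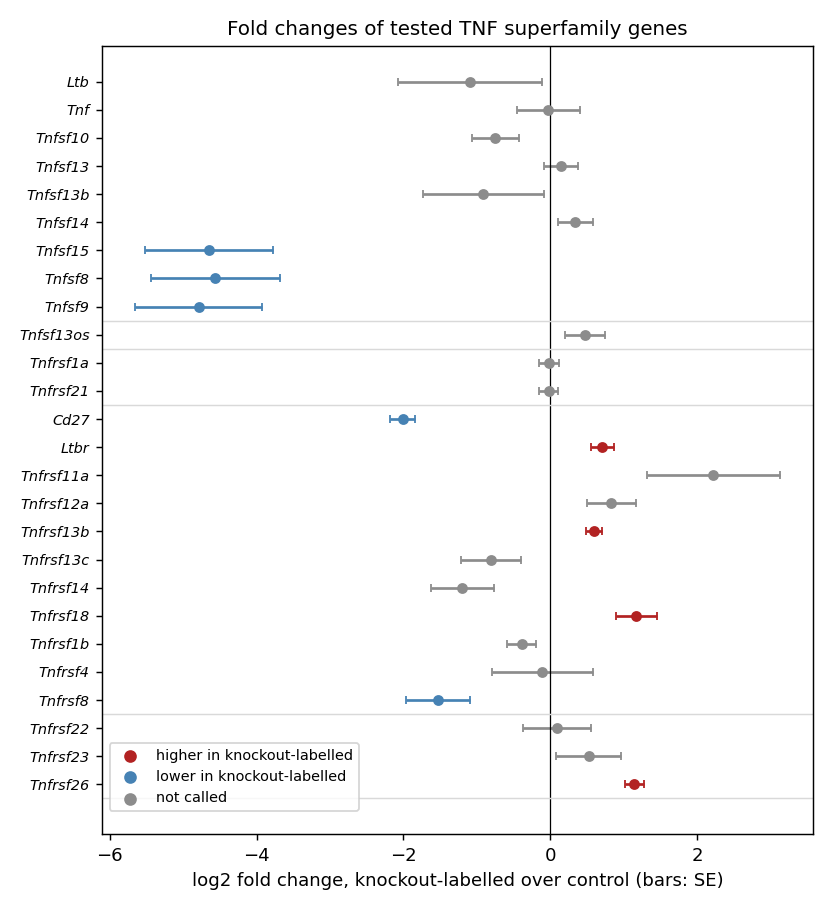
Log2 fold change of the libraries labelled knockout over control for the 26 tested TNF superfamily genes (points) with SE (bars), from the limma fit on 3 libraries per group. Red points were called higher, blue points lower and grey points were not called. Tnfsf8, Tnfsf9 and Tnfsf15 lie lowest, at -4.56, -4.79 and -4.65, and Tnfrsf11a lies highest, at 2.22 with the widest bar among the receptors. The lowest genes passed the read minimum only through control values, and Tnfrsf11a, which was not called, only through knockout-labelled values.

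Of the 4 receptors with a death domain 2 were tested, and neither passed (0 higher and 0 lower with limma, also at an unadjusted p under 0.05 and with edgeR and DESeq2). Among all tested genes limma called 11.8% higher and 15.0% lower, and 2 genes are too few to be set apart from those shares. Tnfrsf1a, the main receptor of TNF on most cells, was at 2312, 3333 and 2907 normalized counts in libraries labelled knockout, against 2963, 2948 and 2684 in control libraries. The control values lay within the range of the knockout-labelled ones (log2 fold change -0.02, SE 0.14, limma adjusted p = 0.928). Tnfrsf21 (DR6) was at 1136, 1098 and 995 normalized counts against 1161, 1084 and 1033 in control libraries (log2 fold change -0.02, SE 0.13, limma adjusted p = 0.920). Tnfrsf25, the receptor of TL1A, had 1 to 8 reads in every library, and Ngfr, the low-affinity neurotrophin receptor, had 0 in all.

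Of the 15 receptors that bind TRAF adaptors 11 were tested, and 3 rose while 2 fell, beside 11.8% higher and 15.0% lower among all tested genes. Tnfrsf13b (TACI), a receptor of BAFF and APRIL, was at 4484, 4144 and 4089 normalized counts in libraries labelled knockout, against 2712, 2971 and 2774 in control libraries. The 3 libraries of each group were close together and the groups were far apart. The means were 4239 ± 214 in libraries labelled knockout and 2819 ± 135 in control libraries (SD, n = 3 each), 1.5-fold higher (log2 fold change 0.59, SE 0.11, limma adjusted p = 0.00238). The other receptors of the same ligands were low. Tnfrsf13c (the BAFF receptor) had 22.4, 44.8 and 35.4 normalized counts in libraries labelled knockout against 43.5, 69.8 and 65.1 in control libraries (limma adjusted p = 0.166). Tnfrsf17 (BCMA, of plasma cells) had 6, 0 and 0 reads against 1, 14 and 7 in control libraries.

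Ltbr, the lymphotoxin β receptor, was at 1280.1, 1677 and 1644 normalized counts in libraries labelled knockout, against 1009, 1007 and 789 in control libraries. All 3 libraries labelled knockout lay above all controls. The means were 1534 ± 220.45 in libraries labelled knockout and 935 ± 127 in control libraries (SD, n = 3 each), 1.64-fold higher (log2 fold change 0.71, SE 0.16, limma adjusted p = 0.00634). With GC content and transcript length corrected for, the log2 fold change was 0.36 (limma adjusted p = 0.0326).

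Tnfrsf18 (GITR), a costimulatory receptor best known on regulatory T cells, was at 259, 523 and 322 normalized counts in libraries labelled knockout, against 185.7, 124 and 165 in control libraries. Knockout-labelled library 2 was the highest, and the groups did not overlap. The log2 fold change was 1.17 (SE 0.28, limma adjusted p = 0.00945), from means of 368 ± 138 in libraries labelled knockout and 158 ± 31.3 in control libraries (SD, n = 3 each). Exons of Tnfrsf18 share 414 bases with the antisense gene Gm16008, whose means were 37.4 ± 13.7 normalized counts in libraries labelled knockout and 25.2 ± 17.5 in control libraries. The adjacent receptor gene Tnfrsf4 (OX40) was at 4.27, 15.6 and 17.1 normalized counts in libraries labelled knockout and 9.77, 16.2 and 9.80 in control libraries (limma adjusted p = 0.924).

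Cd27, a receptor of lymphocytes that in mice is also found on early blood progenitors, fell. It was at 337, 516 and 387 normalized counts in libraries labelled knockout, against 1837, 1512 and 1592 in control libraries. The highest knockout-labelled value lay far below the lowest control value. With means of 414 ± 92.5 in libraries labelled knockout and 1647 ± 170 in control libraries (SD, n = 3 each), Cd27 was 3.98-fold lower (log2 fold change -2.01, SE 0.17, limma adjusted p = 1.97e-05). Under the 16 other settings tried its log2 fold change ran from -2.18 to -1.87. On chromosome 6, Cd27 and Ltbr, which moved in opposite directions, are separated by 1 protein-coding gene in the RefSeq order, and Tnfrsf1a, which was not called, lies 1 further gene beyond Ltbr.

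Upstream stretches of the called receptors are shown to set Cd27, the member with the lowest p, beside 3 receptors that rose. They are again the 250 bases before each RefSeq start (GRCm38.p6), 5′ to 3′ on the gene's strand, with CG dinucleotides in capitals. That of Cd27 lies at chr6:125237028-125237277 (- strand), Ltbr at chr6:125313886-125314135 (- strand), Tnfrsf13b at chr11:61126505-61126754 (+ strand) and Tnfrsf18 at chr4:156026072-156026321 (+ strand).
Cd27: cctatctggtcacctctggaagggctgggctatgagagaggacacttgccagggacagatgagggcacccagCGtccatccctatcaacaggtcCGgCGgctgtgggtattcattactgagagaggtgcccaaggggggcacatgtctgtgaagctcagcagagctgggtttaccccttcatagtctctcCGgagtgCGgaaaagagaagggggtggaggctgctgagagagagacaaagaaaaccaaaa
Ltbr: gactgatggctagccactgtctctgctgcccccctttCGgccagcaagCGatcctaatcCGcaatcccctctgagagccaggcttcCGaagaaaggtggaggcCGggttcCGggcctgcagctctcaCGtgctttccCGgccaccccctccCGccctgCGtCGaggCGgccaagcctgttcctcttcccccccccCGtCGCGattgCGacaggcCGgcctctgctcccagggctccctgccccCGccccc
Tnfrsf13b: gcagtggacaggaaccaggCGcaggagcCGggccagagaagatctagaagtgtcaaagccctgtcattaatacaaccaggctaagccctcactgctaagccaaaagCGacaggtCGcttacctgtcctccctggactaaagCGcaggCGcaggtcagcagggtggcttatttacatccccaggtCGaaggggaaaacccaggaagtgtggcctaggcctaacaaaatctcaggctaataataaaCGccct
Tnfrsf18: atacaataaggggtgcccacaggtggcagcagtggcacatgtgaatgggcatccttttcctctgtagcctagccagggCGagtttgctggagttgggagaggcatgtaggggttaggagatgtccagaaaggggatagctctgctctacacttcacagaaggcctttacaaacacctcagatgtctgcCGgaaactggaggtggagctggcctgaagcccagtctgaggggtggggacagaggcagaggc
Cd27 holds 5 CG dinucleotides and the neighbouring Ltbr 18, a number that 21.6% of promoters reach or pass. Tnfrsf13b holds 8, and Tnfrsf18 only 2, which 80.6% of promoters reach or pass. Receptors that rose thus had upstream stretches with many and with few CG dinucleotides. Of the 9 called members 7 have an upstream stretch in the table. In these 7, both strands were searched for the κB motif, for GAGGAAG (a PU.1 motif) and for TTGCNNAA (a C/EBP motif), which are held by 3.75%, 10.4% and 9.55% of all promoters. The search found 1 κB match, in Tnfrsf8, and no other match in these windows.

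Tnfrsf8 (CD30), the receptor of the ligand made by Tnfsf8, was at 37.3, 14.6 and 39.97 normalized counts in libraries labelled knockout, against 82.6, 68.8 and 100.7 in control libraries. The groups did not overlap, and knockout-labelled library 2 was lowest. The log2 fold change was -1.53 (SE 0.44, limma adjusted p = 0.0234). The call was lost without knockout-labelled library 2 (limma adjusted p = 0.0578), control 1 (0.0631) or control 3 (0.0943). Its neighbour Tnfrsf1b (TNFR2, the TNF receptor of blood cells and endothelium) was at 543, 796 and 996 normalized counts in libraries labelled knockout, against 1092, 958 and 923 in control libraries. It was not called over all libraries (limma adjusted p = 0.179), but it passed after the GC and length correction (0.0499) and without knockout-labelled library 3 (0.0412), each time as lower.

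The remaining TRAF-binding receptors did not pass. Tnfrsf14 (HVEM, a receptor of LIGHT) was at 28.8, 30.2 and 14.8 normalized counts in libraries labelled knockout, all below the 45.3, 58.3 and 64.2 of the control libraries (log2 fold change -1.20, limma adjusted p = 0.0577, and 0.0389 after the GC and length correction). Tnfrsf11a (RANK) was at 18.1, 21.9 and 12.6 normalized counts in libraries labelled knockout, all above the 7.11, 0 and 6.24 of the control libraries (log2 fold change 2.22, SE 0.91, limma adjusted p = 0.0917). Tnfrsf11a passed the read minimum only through its knockout-labelled values, so its direction was fixed once tested. Tnfrsf12a (Fn14, the receptor of TWEAK) was at 84.3, 145.8 and 114 normalized counts against 51.5, 85 and 56.2 in control libraries, with ranges that overlapped by little (limma adjusted p = 0.0864). Cd40, the B cell and dendritic cell receptor, was below the minimum. It had 0 reads in the 3 libraries labelled knockout, against 4, 11 and 35 reads in control libraries, at least 4.64-fold lower against the 3-read floor. It passed as lower where all genes with a read were tested (limma adjusted p = 0.00904, and 0.00325 with DESeq2). With 0 reads in the libraries labelled knockout, Cd40 could only be lower. Tnfrsf9, the receptor of the Tnfsf9 ligand, had 0, 2 and 3 reads in libraries labelled knockout and 5, 0 and 8 in control libraries, and Tnfrsf19 had 1 read in all.

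Decoy-type receptors included the family's lowest p among the genes that rose. Tnfrsf26, a mouse receptor whose ligand is not known, was at 2292, 2333 and 2597 normalized counts in libraries labelled knockout, against 1243, 1050.1 and 1003 in control libraries. Every knockout-labelled library lay well above every control. The means were 2407 ± 165 in libraries labelled knockout and 1099 ± 127 in control libraries (SD, n = 3 each), 2.19-fold higher (log2 fold change 1.14, SE 0.13, limma adjusted p = 0.000116). Its log2 fold change ran from 1.07 to 1.34 under the other settings. Tnfrsf22 and Tnfrsf23, mouse decoy receptors for TRAIL that adjoin Tnfrsf26 on chromosome 7, were at 94.9, 46.9 and 183.8 and at 118, 57.3 and 63.9 normalized counts in libraries labelled knockout. Their control values were 64.9, 133.8 and 77.5 and 65.7, 28.7 and 76.7 (limma adjusted p = 0.902 and 0.415). These 3 genes are close relatives, and since reads with several alignments went to no gene, their counts are uncertain. Tnfrsf11b (osteoprotegerin, the decoy for RANKL) had 0 reads in libraries labelled knockout and 5, 4 and 0 in control libraries.

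Set against their ligands, the called receptors fell into different arrangements. The receptor Tnfrsf8 and its ligand Tnfsf8 both fell, but the Tnfrsf8 call was lost in 3 of the 16 other settings. Cd27 fell and Tnfrsf18 rose while their ligands Cd70 and Tnfsf18 had no reads in any library. Ltbr and Tnfrsf13b rose while Ltb, Tnfsf14, Tnfsf13 and Tnfsf13b were not called. Tnfsf9 and Tnfsf15 fell while their receptors Tnfrsf9 and Tnfrsf25 had at most 8 reads in a library. The ligands Tnfsf8, Tnfsf9 and Tnfsf15 were tested only because of their control values, so they had to be lower once tested.

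**Figure D3:**
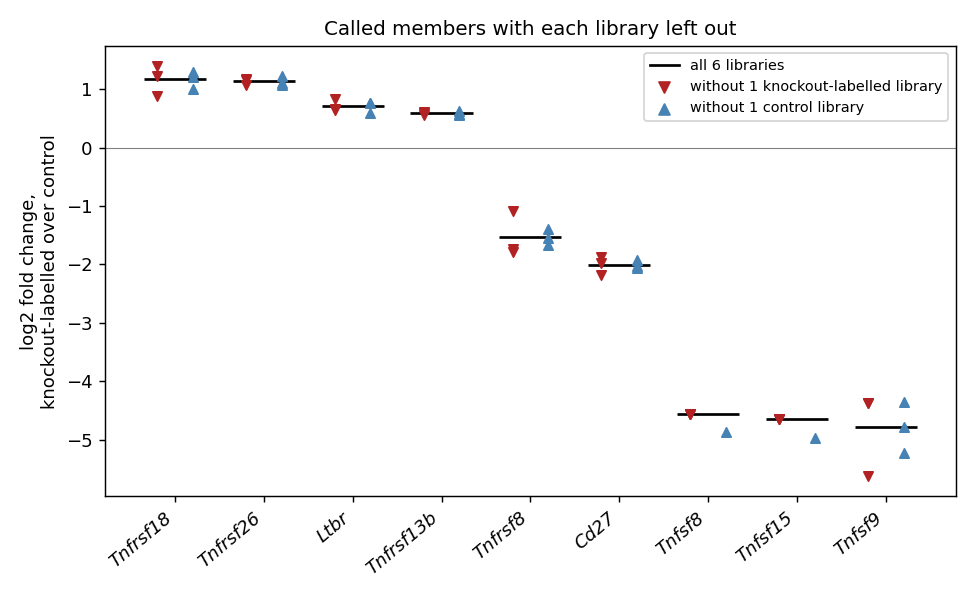
Log2 fold change of the libraries labelled knockout over control for the 9 called members over all 6 libraries (black lines), without 1 knockout-labelled library (red triangles pointing down) and without 1 control library (blue triangles pointing up). No value crosses 0, and the spread is widest for Tnfsf9, which reaches -5.62. Tnfsf8 and Tnfsf15 have no value without control 1 or control 2, where they were below the read minimum.

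Markers of other cell types were also called in both directions. The counts that follow are over tested markers, and a marker near 0 in the libraries labelled knockout could be tested through its control values alone. Each count stands beside 11.8% called higher and 15.0% called lower among all tested genes. Of 12 B lymphoid markers 10 were tested and 10 fell, with a summed level of 1103 to 1435 normalized counts in libraries labelled knockout against 2389.7 to 2891 in control libraries. Most of that level was Cd79b, which was 1.58-fold lower. Pax5, Vpreb3 and Cd22 had 0 reads in the libraries labelled knockout. Of 14 T and NK cell markers 8 were tested, 6 fell and 1 rose, with Cd2 and Cd4 at 0 reads in the libraries labelled knockout. Their sum, 36538 to 56064 normalized counts in libraries labelled knockout against 28535 to 30736 in control libraries, was almost entirely Nkg7. Of 12 dendritic cell markers 11 were tested and 9 fell, with sums of 2631 to 6038 normalized counts in libraries labelled knockout against 13395 to 29298 in control libraries. Of 12 monocyte markers 11 were tested and 11 fell, with sums of 3920.2 to 5810.4 in libraries labelled knockout against 24253 to 25574 in control libraries. Mast cell, basophil and eosinophil markers fell in 8 of 12 and rose in 1, with sums of 47847 to 61885 normalized counts in libraries labelled knockout against 99733 to 106071 in control libraries. Neutrophil markers rose in 2 of 12. Their sums were 292049, 314869 and 113439 in knockout-labelled libraries 1 to 3, against 141070 to 191524 in control libraries. Knockout-labelled library 3 thus lay below every control, and the other libraries labelled knockout lay above. Erythroid and megakaryocyte markers rose in 4 of 12 and fell in 1, with 7670.2 to 18879 in libraries labelled knockout against 6383 to 11711 in control libraries. Of 10 stromal and endothelial markers 4 were tested and 3 fell, with sums of 897 to 1411 in libraries labelled knockout against 1317 to 1714 in control libraries, most of it Pecam1. Cd27, Cd40, Tnfrsf13c and Tnfsf8 are also genes of lymphoid or dendritic cells. Of these Cd27 and Tnfsf8 fell, Tnfrsf13c was not called and Cd40 was below the read minimum. Tnfrsf18, best known on regulatory T cells, and Tnfrsf13b, a receptor of B cell survival ligands, rose. The part of these cell types in the results was not tested.

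Downstream of the receptors, 8 lists of signalling genes held 77 genes outside the family rule, of which 68 were tested, 11 rose and 8 fell, or 27.9% against 26.8% of all genes. Their median log2 fold change was -0.02. The count of those that fell was 4 without control 1 and 5 without control 2 or control 3. Of 3 tested superfamily genes with other symbols 2 rose and 0 fell, beside 11.8% higher and 15.0% lower among all tested genes. Relt, a TNF receptor relative of lymphoid tissue, was at 849, 998 and 851 normalized counts in libraries labelled knockout, against 515, 478 and 541 in control libraries (log2 fold change 0.81, SE 0.15, limma adjusted p = 0.00212). Eda2r, a receptor of ectodysplasin, was at 40.5, 12.5 and 26.3 normalized counts against 0.888, 0 and 3.57 in control libraries (log2 fold change 3.60, SE 0.87, limma adjusted p = 0.0105), and without knockout-labelled library 1 it was below the read minimum. Eda2r was tested only because of its knockout-labelled values, so it had to differ once tested. Eda was below the read minimum, with 37, 4 and 8 reads in libraries labelled knockout and 1 in each control library. It passed as higher with DESeq2 (adjusted p = 0.0133), where all genes with a read were tested (limma adjusted p = 0.0379) and without knockout-labelled library 2 (0.0409). In that last setting knockout-labelled values alone carried Eda over the minimum, so it had to be higher there. Fas was not called, at a log2 fold change of -1.03 (limma adjusted p = 0.0516), and passed as lower without knockout-labelled library 1 (0.0318), with a pseudocount of 4 (0.0475) and when the read minimum was set to 50 (0.0497).

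Of 11 tested adaptors that bind the receptors 1 rose and 0 fell with limma, beside 11.8% and 15.0% of all tested genes. At an unadjusted p under 0.05, 2 were higher and 1 lower. With edgeR and with DESeq2 1 rose and 1, Traf1, fell. After GC and length correction 3 rose, since Birc2 and Tank, which regulate signalling at TRAF complexes, passed as well (limma adjusted p = 0.0162 and 0.0458). Traf6, a ubiquitin ligase that links CD40, RANK and Toll-like receptors to NF-κB, was at 695.5, 760.0 and 855 normalized counts in libraries labelled knockout, against 349, 565 and 440.3 in control libraries (log2 fold change 0.79, SE 0.19, limma adjusted p = 0.0104). Traf1, an adaptor that NF-κB itself induces, was below the read minimum, at 1.07, 1.04 and 0 normalized counts in libraries labelled knockout against 19.5, 14.3 and 22.3 in control libraries. It was lower with edgeR (adjusted p = 0.00321), with DESeq2 (0.00648) and where all genes with a read were tested with limma (0.0036). It was also lower without any 1 knockout-labelled library (limma adjusted p = 0.0112 to 0.0165), which lifted it above the minimum. Control values alone carried Traf1 over the minimum, so it had to be lower there. The adaptors of the death domain were not called: Tradd averaged 584 ± 174 normalized counts in libraries labelled knockout and 643 ± 35.3 in control libraries, and Fadd 569 ± 25.0 in libraries labelled knockout and 453 ± 39.0 in control libraries (SD, n = 3 each; limma adjusted p = 0.558 and 0.135). Of 10 tested genes that add or remove ubiquitin chains at these receptors, 0 rose and 0 fell with limma, edgeR and DESeq2, and 2 were higher and 2 lower at an unadjusted p under 0.05. Among all tested genes limma called 11.8% higher and 15.0% lower. Without knockout-labelled library 1, Rbck1 and Sharpin of the linear ubiquitin ligase passed as higher (limma adjusted p = 0.0162 and 0.0234). Tnip3 passed as lower without knockout-labelled library 2 (0.0319), and Rnf31 of the same ligase without knockout-labelled library 3 (0.0423). Tnip3 was tested only because of its control values.

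**Figure D4:**
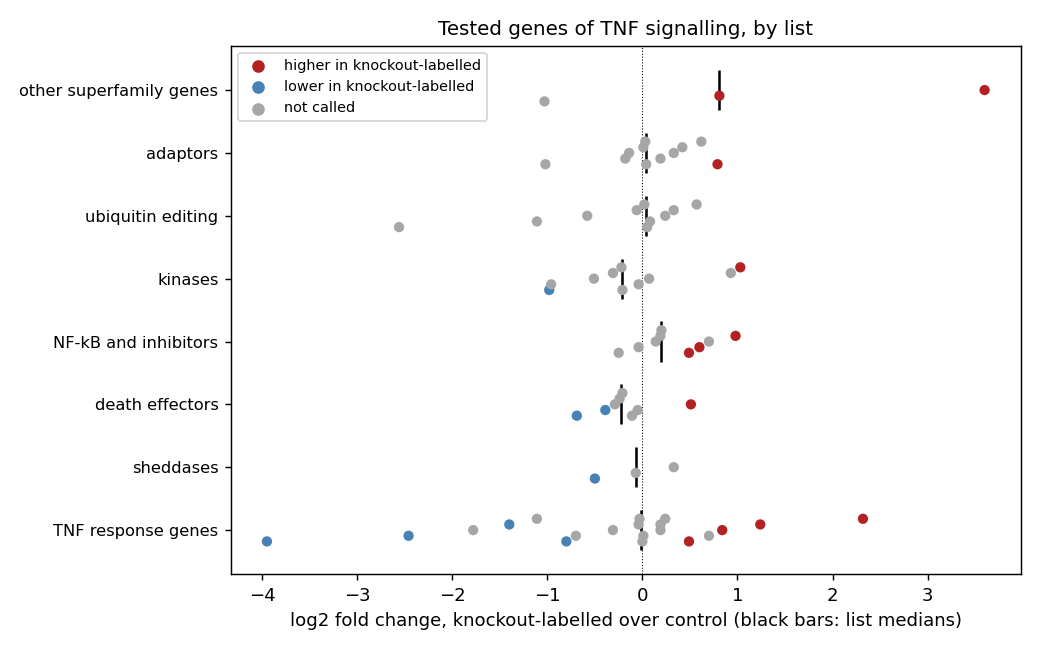
Log2 fold change of the libraries labelled knockout over control for the tested genes of 8 lists of TNF signalling (points), with black bars at the list medians, from the limma fit on 3 libraries per group. Red points were called higher, blue points lower and grey points were not called. Called NF-κB genes lie to the right of 0 (3 of 9, with 1 further gene lower after GC and length correction), and the TNF response list holds both the gene furthest to the left and 4 called genes to the right of 0. Of all tested genes 11.8% were called higher and 15.0% lower.

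Among 10 tested kinases of the pathway 1 rose and 1 fell, beside 11.8% higher and 15.0% lower among all tested genes. Tab1, a partner of the kinase TAK1, was at 597, 904 and 822 normalized counts in libraries labelled knockout, against 382, 349 and 392 in control libraries (log2 fold change 1.03, SE 0.18, limma adjusted p = 0.0019). Map3k8 (TPL2), which leads to ERK, was at 84.3, 49.98 and 52.5 normalized counts against 129.7, 133.8 and 99.8 in control libraries (log2 fold change -0.98, limma adjusted p = 0.0394). Its call was lost without any 1 of knockout-labelled libraries 2 and 3 and the 3 controls (0.0634 to 0.133), where all genes with a read were tested (0.0665) and after GC and length correction (0.114). That correction brought in Map3k14 (NIK), a kinase of the noncanonical pathway, as lower (limma adjusted p = 0.0122). Chuk (IKKα) passed as lower without knockout-labelled library 1 (0.00454), and Tab3 as higher without control 2 (0.0293).

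Of 9 tested NF-κB subunits and inhibitors 3 rose and 0 fell, beside 11.8% higher and 15.0% lower among all tested genes. The count of lower genes was also 0 with limma at an unadjusted p under 0.05, with edgeR and with DESeq2, but after GC and length correction the inhibitor gene Nfkbib was lower (log2 fold change -0.53, limma adjusted p = 0.0101). Nfkb1, which encodes p105 and p50, was at 3657, 4039 and 4001 normalized counts in libraries labelled knockout, against 2651, 2378 and 2699 in control libraries. The groups were far apart (log2 fold change 0.60, SE 0.11, limma adjusted p = 0.00265). Rel (c-Rel) averaged 137 ± 24.8 normalized counts in libraries labelled knockout and 68.7 ± 11.3 in control libraries (SD, n = 3 each; limma adjusted p = 0.026). Nfkbia, the inhibitor IκBα, averaged 4652 ± 364 normalized counts in libraries labelled knockout and 3378 ± 817 in control libraries (limma adjusted p = 0.0451). The call of Rel was lost without knockout-labelled libraries 1 (0.0704) or 2 (0.0674) or controls 2 (0.062) or 3 (0.0989). That of Nfkbia was lost without knockout-labelled libraries 2 (0.132) or 3 (0.0768) or controls 1 (0.193) or 3 (0.107), with edgeR (0.059) and where all genes with a read were tested (0.0645).

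Of 8 tested effectors of death signalling 1 rose and 2 fell, with a median log2 fold change of -0.22. Among all tested genes 11.8% were called higher and 15.0% lower. Casp8, the caspase that death receptors activate, was at 3730.3, 4073 and 3033 normalized counts in libraries labelled knockout, against 5349, 6084 and 5889 in control libraries (log2 fold change -0.69, SE 0.13, limma adjusted p = 0.00275). Every knockout-labelled value of Casp8 lay below every control value. Ripk3, a kinase of necroptosis, averaged 2564 ± 321 normalized counts in libraries labelled knockout and 3352 ± 128 in control libraries (log2 fold change -0.39, limma adjusted p = 0.0351). Cflar (c-FLIP), which restrains caspase-8, rose with 1087, 1085 and 1219.6 normalized counts against 767, 698 and 928 in control libraries (log2 fold change 0.51, SE 0.15, limma adjusted p = 0.0247). The Ripk3 call was lost without any 1 library other than knockout-labelled library 3 (0.0596 to 0.118), and that of Cflar without knockout-labelled library 3 (0.0607) or controls 1 (0.0796) or 2 (0.117). Among 3 tested proteases that shed family members, Adam17 fell, with 572, 587 and 499 normalized counts in libraries labelled knockout against 817, 719 and 809 in control libraries (limma adjusted p = 0.0269). This call was lost without knockout-labelled library 3 (0.061) or any 1 control (0.0557 to 0.106) and after GC and length correction (0.0988).

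Genes that TNF is known to induce moved in both directions: of 20 tested 4 rose and 4 fell, with a median log2 fold change of -0.02. Among all tested genes 11.8% were called higher and 15.0% lower. Vcam1, an adhesion molecule, was at 20075, 20067 and 14859 normalized counts in libraries labelled knockout, against 3568, 3597 and 3778 in control libraries (log2 fold change 2.32, SE 0.13, limma adjusted p = 1.55e-06). Dusp1, a MAP kinase phosphatase, averaged 303 ± 97.5 normalized counts in libraries labelled knockout and 123 ± 10.2 in control libraries, and Ier3, an immediate-early survival gene, 458 ± 58.5 in libraries labelled knockout and 255 ± 40.4 in control libraries (SD, n = 3 each; limma adjusted p = 0.0048 and 0.00807). Nfkbia, which also belongs to this list, was the other that rose. Those that fell were the chemokine gene Ccl5 (47.2 ± 28.3 normalized counts in libraries labelled knockout, 226.7 ± 75.4 in control), the transcription factor gene Irf1 (1055 ± 253 in libraries labelled knockout, 1798 ± 15.8 in control), the dendritic cell activation marker Cd83 (8.02 ± 10.4 in libraries labelled knockout, 73.5 ± 13.1 in control) and the macrophage growth factor gene Csf1 (63.1 ± 17.8 in libraries labelled knockout, 167.7 ± 51.6 in control), with limma adjusted p values of 0.00433, 0.00522, 0.00758 and 0.00921. Without control 1 the call of Csf1 was lost (0.05), and the log2 fold change of Cd83 was -3.95 with all libraries, -2.82 without knockout-labelled library 3 and -5.01 without knockout-labelled library 2. That of Ccl5 was -2.46 with all libraries and -1.77 without knockout-labelled library 2. Cd83, at a mean of 8.02 normalized counts in libraries labelled knockout, passed the read minimum of 10 only through its control values. Its direction was therefore fixed once tested. With edgeR 3 genes of this list rose and 5 fell, and after GC and length correction 4 rose and 6 fell. Icam1 and Junb passed as lower after that correction (limma adjusted p = 0.0166 and 0.011). Icam1 also passed without knockout-labelled library 2 (0.0152) and when the read minimum was set to 50 (0.0473).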

How the data were processed

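RNA-seq libraries of sorted GMPs, 3 per group, were made from total RNA with SMARTer low-input amplification and an Ion Torrent whole-transcriptome kit, per the labels' protocols. They carry no molecular identifiers, so floors of 3 reads cover counting error only. Tools named in the submitters' processing notes are STAR, BWA 0.7.5a, Picard, DESeq2 and HTSeq, and the builds are NCBIM37 and mm9, with no roles given. The deposited signal per gene is a read count scaled by the authors with a size factor for each library. Dividing each value above 0 by the value of 1 read gave a whole number in 100% of cases (tolerance 0.01 of a read), so the whole reads could be recovered. The values are called normalized counts here.

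A count test had been planned. Because the values were scaled, the main test was limma 3.58.1 (R 4.3.3) on log2(value + 1), with a trend of variance over the mean. This scale understates the change of low genes. The fit used all 6 libraries and no term but group, over the 14391 genes whose mean value reached 10, 2-sided, with Benjamini-Hochberg adjustment and a threshold of 0.05. Fold differences without "log2" are ratios of group means. edgeR 4.0.16 on the recovered reads tested 14458 genes and called 3764 (26.0%). Counts at an unadjusted p under 0.05 are given for members and lists only, without a share over all tested genes. The 16 alternatives included edgeR, DESeq2 1.42.0, other filters and pseudocounts, TMM scaling, a GC and length correction (mgcv 1.9.3) and each library left out. Simulated counts with known changes were used to test the limma steps.

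Genes held 22.9 to 25.2% of all listed reads. Reads outside genes made up 38.39 to 40.9%, reads with several alignments 26.76 to 28.79%, unaligned reads 6.3 to 11.62% and ambiguous reads 0.12 to 0.13%. The 5 rows that name no gene stayed out of library sizes and tests. Across genes, which are no independent replicates, log2 values of 2 libraries correlated at 0.961 to 0.974 within a group and at 0.898 to 0.918 otherwise. Replicates differed beyond counting noise, with a chi-square per gene of 44.7 to 54.2 between knockout-labelled libraries and 13.8 to 19.0 between controls. Symbols came from GENCODE M21 (32897 of 37620 IDs). Symbols, lengths, exon overlaps, gene order and upstream stretches come from GRCm38 and not from the build of the files, and 31 of the 39 members have an upstream stretch in the RefSeq table.

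The members and the gene lists were chosen with earlier results of these data known. All tested members are named with their values or calls, and signalling genes where called or of a defining role. 1 receptor gene of the family and 1 signalling gene are not reported here.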

Additional observations from a re-analysis of the deposited data

How the results depend on the processing

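The calls of Tnfrsf26, Tnfrsf13b, Ltbr, Tnfrsf18 and Cd27 held under all 16 alternatives, with 4 members higher in each. With only genes at a mean value of at least 50, 2 members were lower, since Tnfsf8, Tnfsf9 and Tnfsf15 were not tested. Leaving out each library in turn gave 4 to 4 members higher and 2 to 6 lower (2 without control 1, 3 without control 2), 1058 to 1796 genes higher and 1413 to 2354 lower, and 9 to 11 signalling genes higher and 4 to 10 lower. The all-gene counts were lowest without control 2 (1058 and 1422) and control 3 (1105 and 1413). For uncalled members whose log2 fold change reversed, the cause was not tested. Without 1 library, Tnf ran from -0.41 to 0.18, Tnfsf13b from -1.65 to 0.29, Tnfrsf1a from -0.14 to 0.12, Tnfrsf21 from -0.06 to 0.03, Tnfrsf4 from -0.43 to 0.46 and Tnfrsf22 from -0.39 to 0.59. Tnfrsf4 was at 0.05 with DESeq2 and with edgeR.

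The same replicate numbers occur in both groups, but same-numbered libraries did not deviate together (correlations -0.104, 0.0417 and -0.058), so the numbers were not taken as pairs. With the replicate block 4 members were higher and 5 lower, among 1550 genes higher and 2014 lower. Of the signalling genes 11 were higher and 6 lower with the block, which lost the calls of Ripk3 (limma adjusted p = 0.0647) and Adam17 (0.0529). The minimum of 10 normalized counts was a choice, and Cd40 passed as lower below it. With 0 reads in the libraries labelled knockout no other direction was possible for Cd40.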
